A study of Homo sapiens with 4 samples.

Results

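The results concern 429 cytidines of the LX-2 transcriptome at which the mismatch difference recorded after NaBH4 treatment was lower in TGF-β1-treated cells than in untreated cells. They were selected on the measured values: a cytidine was kept when it was listed in both deposited tables and its value in the TGF-β1 table lay below its value in the control table. Of 1985 cytidines listed in both tables, 429 met this rule and 1556 were higher after TGF-β1. The control table held 8112 cytidines, the TGF-β1 table held 11735 of them, and 17862 were listed in at least 1 of them. The 429 were 5.29% of the control list and 3.66% of the TGF-β1 list.

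LX-2 is an immortalised human hepatic stellate cell line, labelled as wild type, and all 4 libraries were made from polyadenylated RNA of these cells. The control group was 2 libraries of untreated cells, and the TGF-β1 group was 2 libraries of cells exposed to 5 ng/ml TGF-β1 over 24 h. Each group was deposited as 1 table with 1 value per position, so no value below has a replicate error and no test between the groups was possible. No library without NaBH4 and no library of cells depleted of NAT10 is named in the labels, so a listed position is a C mismatch that was not shown to be N4-acetylcytidine. What the deposited difference subtracts, the read depth behind it and the software that called it are not stated in the labels or the file headers.

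N4-acetylcytidine (ac4C) is a cytidine that carries an acetyl group, placed by the acetyltransferase NAT10. Sodium borohydride (NaBH4) reduces it to a base that reverse transcriptase misreads, so that an acetylated C appears as T in a share of the reads. In messenger RNA it has been described in coding sequence and in 5' untranslated regions, where it has been tied to RNA stability and to translation. Hepatic stellate cells store retinoids in the healthy liver and turn into contractile, collagen-secreting myofibroblasts when TGF-β1 acts on them.

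The sequence around 13 of the 429 positions could be read, because these lay inside or opposite a RefSeq transcription start window (GRCh38.p14, the same coordinates as hg38). The 7 of them with a fall of more than 3 points are shown to give the bases beside the affected cytidine. Each is written 5' to 3' on the strand of the listed cytidine, which is the capital letter.
DYNLT2B coding sequence, chr3:196318082-196318098, minus strand: gagaagaacgCagggga
AARS2 coding sequence, chr6:44306980-44307000, minus strand: gtgcgtttctCcatggagatc
CYBA 5'UTR, chr16:88651044-88651064, minus strand: gcaggggcggCagtgcgcgcc
RAB1B 5'UTR, chr11:66268616-66268636, plus strand: catcttggaaCgggaggcgga
SLC2A4RG 3'UTR, chr20:63743722-63743742, plus strand: aagctaatccCgtcacagaaa
DNAJA1 5'UTR, chr9:33025283-33025303, plus strand: ccagaacgctCggtgagaggc
RANGAP1 5'UTR, chr22:41286143-41286163, minus strand: gctggaagcgCgtgaggccgg

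These windows favour transcript starts, so 9 of the 13 readable members were in a 5'UTR, 3 in coding sequence and 1 in a 3'UTR. The triplet CCG, with the listed cytidine in the middle and searched on the transcript strand only, was present at 1 of the 13, the SLC2A4RG position (7.69%, Wilson 95% interval 1.37 to 33.3%, which covers counting error only). Among readable positions that were higher after TGF-β1 it was present at 4 of 38 (10.5%), and among 476 listed positions of either table at 52 (10.9%). In the first 50 transcribed bases of the RefSeq windows, 7.34% of 481292 cytidines lay in CCG. A G followed the cytidine at 7 of the 13 members, at 19 of the 38 higher positions and at 56.5% of all readable listed positions, against 22.3% of the window cytidines. A G preceded it at 7 of the 13 members and at 48.9% of the readable listed positions, against 34.5% of the window cytidines. For the 13 members the Wilson 95% interval was 29.1 to 76.8% for a G after and for a G before the C. For the 38 higher positions it was 34.8 to 65.2% after and 32.5 to 62.7% before. So few members cannot show whether lower and higher positions have similar neighbouring bases. In both sets the interval for a G after lay above the 22.3% of window cytidines, and that for a G before included 34.5%. For all 476 readable listed positions the interval for a G before, 44.5 to 53.4%, lay above 34.5%. Window cytidines are not a matched background: 3 members were read on the strand opposite a window, outside the transcribed bases counted there.

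Any fall at all was seen at 21.6% of the 1985 shared positions (Wilson 95% interval 19.9 to 23.5%). The members had a median of 4.92% in control (1.37 to 33.0%) and of 3.77% after TGF-β1 (1.007 to 24.8%). Their median difference was -0.98 points, with quartiles of -2.02 and -0.37, and their median ratio of TGF-β1 to control was 0.804. The positions that were higher after TGF-β1 had medians of 3.48% in control and 6.51% after TGF-β1. These values made the selection, so their order within and between the sets is part of the rule and not a finding. Falls were smaller than rises, with a median of -0.98 points against 2.51 points, and also fewer, so the counts that follow reflect both. A fall of 1 point or more was seen at 210 members, 49.0% of them and 10.6% of the shared positions. A rise of as much was seen at 1230 positions, 62.0% of the shared positions. Falls of 5 points or more were seen at 24 positions (1.21% of the shared positions), against 415 rises of that size. Falls of 10 points or more numbered 2, against 138 rises. The value after TGF-β1 was at most 0.5 of the control value at 33 positions (1.66%), and at least 2 times the control value at 549.

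**Figure D1:**
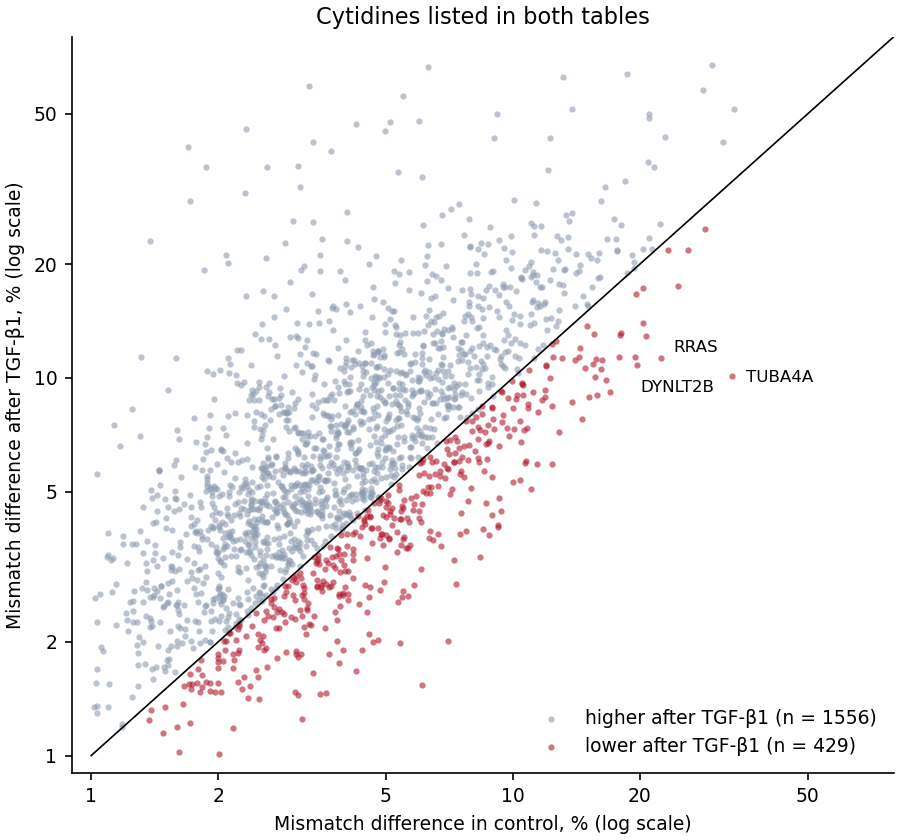
Mismatch difference in control (x axis, %, log scale) against that after TGF-β1 (y axis, %, log scale) for the 1985 cytidines listed in both tables, 1 point per cytidine, with a line of equal values. The 429 red points lie below the line by construction, most of them close to it, and TUBA4A stands apart at 33.0% in control and 10.1% after TGF-β1.

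The whole set of shared positions was shifted upward, with a median difference of 1.73 points and a median log2 ratio of 0.58. Dividing the TGF-β1 values by the median ratio over shared positions, 1.498, makes 49.97% of them lower, a share that this division sets by construction. Division by the ratio of the medians of the 2 whole tables, 1.16, makes 31.0% of them lower. Either division lowers every TGF-β1 value, so no member could change direction and neither bears on how stable the members are.

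The rule has no minimum size, and the smallest falls were close to nothing. Just inside it were ETFB, at 4.298% in control and 4.296% after TGF-β1, FLII (6.104% and 6.100%), RPL21 (2.117% and 2.107%), RPS12 (3.366% and 3.351%) and MAFF (2.245% and 2.227%). Just outside it were UBE2S (1.184% and 1.187%), PPP1R15A (2.349% and 2.353%), TACC3 (4.462% and 4.469%) and CSNK1G2 (2.693% and 2.703%). Members also had to keep a value of at least 1.00% and a deposited p below 0.05 in both tables, since the tables list nothing beyond these limits. A cytidine that dropped below the listing limit after TGF-β1 has no value there and is not among the members.

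The deposited p-values of the members were smaller in control, with a median of 7.62e-06, than after TGF-β1, with a median of 0.000205. The higher positions had the opposite order, with medians of 8.61e-05 in control and 1.50e-08 after TGF-β1. A p below 0.001 in both tables was recorded for 209 of the 429 members. The p belongs to the value that the rule compared, so these orders are tied to the selection and nothing is read from them. Whether the p-values were adjusted is not stated.

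The largest fall was in the coding sequence of TUBA4A, an alpha-tubulin (chr2:219250442, minus strand), where 33.0% in control stood against 10.1% after TGF-β1. It was the only listed position of that gene in either table. RRAS, a small GTPase related to Ras that acts on integrin adhesion, followed with 22.5% in control and 11.3% after TGF-β1 (chr19:49640078, coding). These were the only 2 members with a fall above 10 points.

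Several of the next largest falls were in genes of signalling and of small GTPase control. RGL2, an exchange factor for Ral GTPases, stood at 17.0% in control and 9.16% after TGF-β1 (chr6:33291770, 3'UTR). Its deposited p in control was 0.0325, close to the listing limit. CYTH2, an exchange factor for ARF GTPases, stood at 15.2% and 8.92% (chr19:48474915, coding). TNIP1, which binds the ubiquitin editor A20 and restrains NF-κB, stood at 13.8% and 8.65% (chr5:151030141, 3'UTR). TNIP1 had 2 listed cytidines in the control table and 16 in the TGF-β1 table, and the other of its 2 shared positions rose by 1.37 points. IGF2, the growth factor, stood at 20.4% and 13.96% (chr11:2132010, 3'UTR), at a position also annotated to a second, unnamed gene. Calcium handling was represented by ORAI2, a plasma membrane calcium channel subunit (15.7% and 10.1%, chr7:102447142, 3'UTR), and by ITPR3, a calcium release channel of the endoplasmic reticulum (9.24% and 4.07%, chr6:33677071, coding).

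Structural and matrix genes among the largest falls were DYNLT2B, LAYN and COL7A1. DYNLT2B, a dynein light chain, stood at 19.7% in control and 10.8% after TGF-β1 (chr3:196318088, coding, also annotated to a second, unnamed gene, and shown above). LAYN, a hyaluronan receptor, stood at 24.6% and 17.5% (chr11:111560228, coding), and the cytidine next to it was lower as well. COL7A1, the collagen of anchoring fibrils, stood at 9.21% and 4.03% (chr3:48580610, coding).

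Nuclear and nucleolar genes formed another share of them. SURF6, a nucleolar protein of ribosome assembly, stood at 20.7% in control and 12.9% after TGF-β1 (chr9:133331402, 3'UTR). TCF3, which encodes the E proteins E12 and E47, stood at 15.8% and 9.01% (chr19:1646357, coding). POLR2A, the largest subunit of RNA polymerase II, stood at 16.2% and 11.1% (chr17:7496956, coding). SNHG17, a noncoding host gene of small nucleolar RNAs, stood at 17.8% and 11.3% (chr20:38420799).

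Enzymes and translation genes made up most of the rest. CTPS1, which makes CTP, stood at 12.4% in control and 5.91% after TGF-β1 (chr1:41007474, coding). PC, pyruvate carboxylase, stood at 10.4% and 5.36% (chr11:66850037, coding), with deposited p-values of 0.0376 and 0.0356 that were close to the listing limit. GFER, a sulfhydryl oxidase of the mitochondrial intermembrane space, stood at 14.6% and 7.79% (chr16:1986267, 3'UTR). CYBA, the p22-phox subunit of NADPH oxidases, stood at 11.4% and 5.91% (chr16:88651054, 5'UTR, shown above). AARS2, the mitochondrial alanyl-tRNA synthetase, stood at 12.9% and 7.17% (chr6:44306990, coding, shown above). Its deposited p after TGF-β1 was 0.0353, close to the listing limit. RPL34, a protein of the large ribosomal subunit, stood at 7.01% and 2.02% (chr4:108622144, coding). The remaining 3 were LRRC42 (19.4% and 11.4%), PXDC1 (16.6% and 9.88%) and NDRG1 (16.2% and 10.5%).

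**Figure D2:**
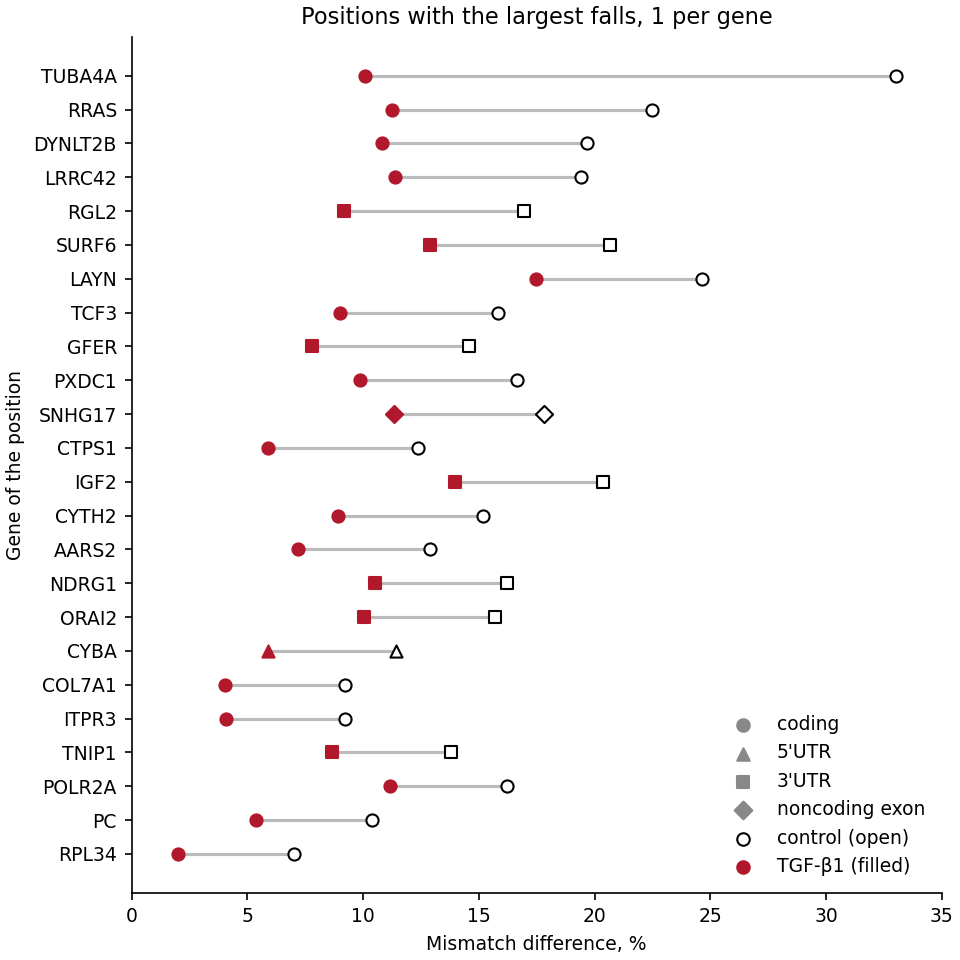
The largest falls among the members, 24 positions in 24 genes, with the mismatch difference (x axis, %) in control as an open symbol and after TGF-β1 as a filled symbol, joined by a line; the symbol shape gives the transcript segment. The line of TUBA4A runs from 33.0 to 10.1%, while those from CYBA downward end between 2.02 and 11.1%.

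Ranked by ratio among members at 5% or more in control, the lowest was ENDOG, a mitochondrial nuclease, with 6.10% in control, 1.54% after TGF-β1 and thus a ratio of 0.253. RPL34 (0.288) and TUBA4A (0.306) came next, and SH3BP5L followed with 5.40% and 1.99%. SHKBP1 stood at 7.33% and 2.84%. RANBP1, a cofactor of the Ran GTPase, stood at 8.34% and 3.35% in its 5'UTR (chr22:20117560). RAB1B, a GTPase of transport from the endoplasmic reticulum to the Golgi, stood at 8.78% and 3.84% in its 5'UTR (chr11:66268626, shown above). COL7A1, ITPR3 and C9orf40 (7.25% and 3.29%) completed the 10 lowest. At the other end, some members stayed among the high values after TGF-β1: ANXA6, an annexin (28.5% and 24.8%), the pseudogene RPL13P12 (26.0% and 21.8%), AKR7A2, an aldehyde reductase (23.4% and 21.7%), LAYN, and COL18A1, whose C terminus gives endostatin (20.3% and 17.3%). RPL13P12 is near-identical to its parent gene, so its reads may be shared with RPL13.

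By transcript segment, 330 members were in coding sequence, 46 in 3'UTRs, 42 in 5'UTRs and 11 in noncoding exons. The share of shared positions that were lower was 20.9% in coding sequence (330 of 1577, Wilson 95% interval 19.0 to 23.0%) and 20.5% in 5'UTRs (42 of 205, 15.5 to 26.5%). It was 26.4% in 3'UTRs (46 of 174, 20.4 to 33.4%) and 40.7% in noncoding exons (11 of 27, 24.5 to 59.3%). The 3'UTR interval included the 21.6% of all shared positions, and the noncoding interval rested on 27 positions.

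The size of the fall also varied by segment. The median difference of members was -1.77 points in 3'UTRs, -1.17 in 5'UTRs, -0.87 in coding sequence and -0.84 in noncoding exons. Their median control values, in the same order, were 7.26%, 5.46%, 4.58% and 8.27%. Falls in points also grew with the control value, from a median of -0.23 at 1 to 2% to -6.41 above 20%. The listing limit of 1.00% bounds the falls at low control values. The parts of segment and of level in these sizes were not tested. Of the 24 falls of 5 points or more, 7 were in 3'UTRs (29.2%), where 10.7% of all members lay. Of these 7, 5 stood at 10 to 20% in control and 2 above 20%. Beyond those named, the 3'UTR falls above 4 points were in UBE2G2, a ubiquitin-conjugating enzyme of the endoplasmic reticulum (18.1% and 13.2%), POLDIP3 (15.7% and 11.2%), S1PR5, a sphingosine-1-phosphate receptor (8.48% and 3.97%), and PEBP1, an inhibitor of Raf signalling (9.27% and 4.82%). CANT1, a Golgi nucleotidase needed for proteoglycan synthesis, had both of its lower positions in the 3'UTR (8.63% and 4.66%; 11.9% and 8.89%).

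In 5'UTRs the largest falls after CYBA, RANBP1 and RAB1B were in SEPTIN9, a cytoskeletal GTPase (10.7% in control and 5.95% after TGF-β1), DNM2, the GTPase that severs endocytic vesicles (14.8% and 10.6%), and DNAJA1, a cochaperone (10.4% and 6.76%). RANGAP1, which activates GTP hydrolysis by Ran, stood at 7.83% and 4.73%, and SMTN, the smooth muscle protein smoothelin, at 5.84% and 2.83%. The 11 noncoding members included the host gene SNHG29 (4.86% and 3.87%), LINC00839 (8.27% and 6.91%) and the pseudogenes RPL13P12, RPS7P1, C19orf48P and FAUP1. MYL6, DDX39A and TPM1 are coding genes with a member annotated to a noncoding exon, and the 2 other members of TPM1 were in coding sequence. The genes of these segments that the naming rule does not cover were picked with their values in view.

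The share of positions that were lower rose with the control value, which itself entered the rule. Nothing below 1.00% is listed, so a cytidine at 1 to 2% in control could be a member only by a fall of less than 1 point. The order of these shares is thus tied to the selection and nothing is read from it. It was 9.35% for cytidines at 1 to 2% in control (26 of 278), 13.9% at 2 to 3% and 22.5% at 3 to 5%. It reached 28.6% at 5 to 10% (141 of 493), 37.1% at 10 to 20% (59 of 159) and 40.9% above 20% (9 of 22). Within the 10 to 20% class, 13 of 28 3'UTR positions (46.4%), 6 of 15 5'UTR positions (40%) and 37 of 111 coding positions (33.3%) were lower. At 5 to 10% the order differed, with 21 of 55 5'UTR positions (38.2%), 106 of 378 coding positions (28.0%) and 12 of 52 3'UTR positions (23.1%).

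The rule did not use how many cytidines a gene had in each table, but it required listing in both, and each shared position counts in both numbers. Of the 389 genes that held a member, 270 (69.4%) had more listed cytidines after TGF-β1 than in control and 52 (13.4%) had fewer. Together their listed cytidines went from 1223 to 2212, a ratio of 1.81. The 1032 genes with shared positions but no member went from 2535 to 3909, a ratio of 1.54, and 569 of them (55.1%) had more. Seen by position, 24.0% of shared positions were lower in genes that gained listed cytidines (306 of 1275, 21.7 to 26.4%), 18.8% in genes with equal numbers (70 of 373) and 15.7% in genes that lost some (53 of 337, 12.2 to 20%). Genes with more listed cytidines after TGF-β1 held 71.3% of the members and 64.2% of all shared positions. Genes with more shared positions have more chances to hold a member, and the read depth of each gene is unknown, so the part of either in these counts was not tested.

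**Figure D3:**
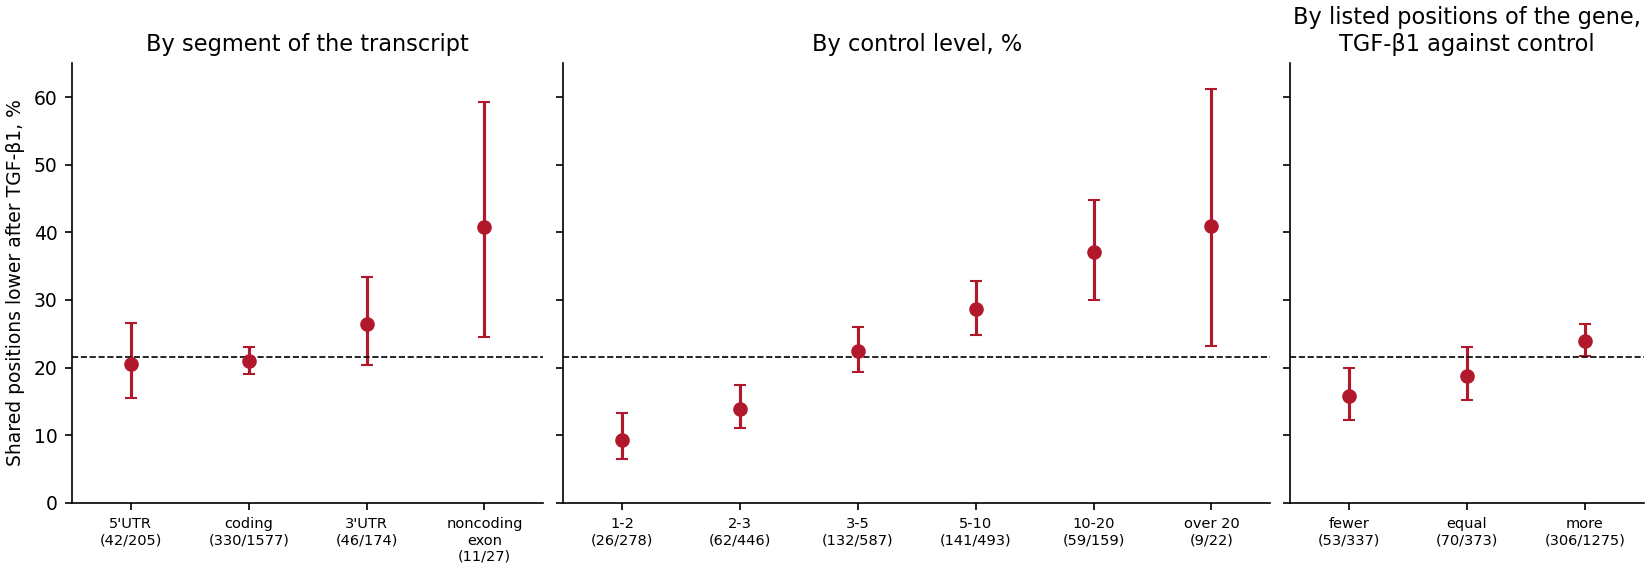
Share of shared positions that were lower after TGF-β1 (y axis, %) by transcript segment, by control value and by the change in the number of listed cytidines of the gene; points are shares, bars are Wilson 95% intervals (counting error only), and the dashed line is the 21.6% of all shared positions. Counts of lower and of shared positions stand under each point. The share runs from 9.35% at 1 to 2% in control to 40.9% above 20%, an order tied to the rule and to the listing limit.

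The share was close to the overall value by strand and by gene length. It was 21.6% on either strand (220 of 1018 on plus, 209 of 967 on minus). It was 21.8% in genes spanning under 10 kb, 23.4% at 10 to 30 kb, 19.8% at 30 to 100 kb and 21.1% above 100 kb. Of the 22 autosomes, chromosome 4 had the lowest share (3 of 34, 8.82%, 3.05 to 23.0%) and chromosome 18 the highest (6 of 20, 30%, 14.5 to 51.9%), and both intervals included 21.6%.

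Most genes held a single member: 343 had 1, 37 had 2, 7 had 3 and 2 had 4. Among the 395 genes with 2 or more shared positions, 21 had all of them lower, 167 were mixed and 207 had all of them higher. With 3 or more shared positions, 2 of 129 genes had all of them lower, EZR and TPM1. EZR, the membrane-cytoskeleton linker ezrin, had 3 of 3 lower, with differences from -0.89 to -0.61 points. The deposited p in control at its smaller falls was 0.0396 and 0.0411, close to the listing limit. TPM1, a tropomyosin of actin filaments, also had 3 of 3 lower: 15.5% in control and 13.1% after TGF-β1, 2.35% and 1.42%, and 3.89% and 3.07%. Of the 19 genes with 5 or more shared positions, 13 held a member and none had all positions lower.

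FLNC and COL5A2 held 4 members each. In FLNC, filamin C, an actin cross-linker, the 4 lower positions stood at 4.59%, 10.2%, 3.19% and 2.49% in control and at 2.79%, 8.81%, 2.19% and 2.10% after TGF-β1. The 5 other shared positions of FLNC rose by 0.26 to 4.76 points. In COL5A2, a chain of type V collagen, the lower positions stood at 9.68%, 7.44%, 10.2% and 4.69% in control and at 7.37%, 6.03%, 8.99% and 4.65% after TGF-β1. The 4 others in COL5A2 rose by 0.33 to 5.85 points. Falls and rises thus occurred side by side in the same transcripts.

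The same held for the other genes with several members. MYH9, the heavy chain of nonmuscle myosin IIA, had 3 of 9 positions lower, with differences from -0.87 to 3.19 points. COL4A2, a chain of basement membrane collagen IV, had 3 of 7 lower, with differences from -1.04 to 12.4 points. RHOC, a small GTPase of the actin cytoskeleton, had 3 of 4 lower, from -0.92 to 2.11 points, at positions also annotated to a second, unnamed gene. PLEC, the cytolinker plectin, had 2 of 16 lower, from -1.20 to 17.6 points, and TNKS1BP1 had 1 of 9 lower, from -2.11 to 6.74 points.

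**Figure D4:**
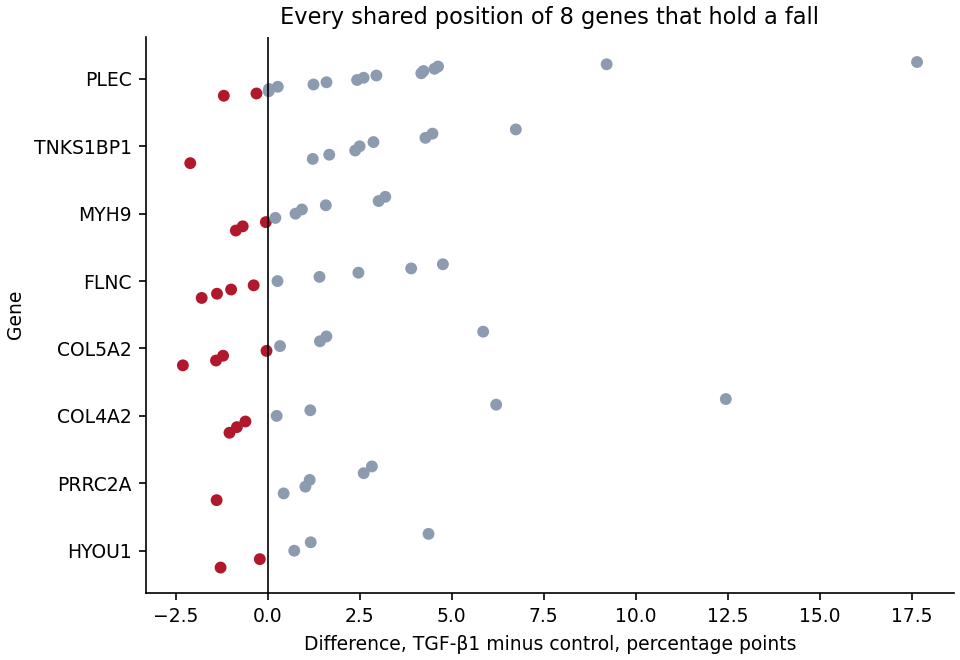
Difference between TGF-β1 and control (x axis, percentage points) at every shared position of 8 genes that hold a member and have many shared positions, 1 point per cytidine, red where lower and grey where higher. Every gene shown has points on both sides of 0, from -2.31 in COL5A2 to 17.6 in PLEC.

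Cytidines close to each other did not always move together. Pairs with both lower made up a larger share within 10 bases than farther apart, but split pairs were no less frequent there. Of 35 pairs of shared cytidines in adjacent bases, 5 were both lower, 13 were split and 17 were both higher. At 2 to 10 bases the counts were 6, 14 and 22 of 42 pairs, at 11 to 200 bases 3, 23 and 45 of 71, and at beyond that up to 1000 bases 3, 27 and 67 of 97. Pairs with both lower thus made up 14.3%, 14.3%, 4.23% and 3.09% in these 4 classes of rising distance. Adjacent cytidines are read by the same reads, so such pairs are not independent measurements. The both-lower pairs at 2 to 10 bases also include overlapping pairs within RHOC. Whether neighbours tend to fall together was not tested.

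The 5 adjacent pairs with both members lower were in LAYN, MNT, RHOB, CPNE1 and MELTF. In LAYN the pair stood at 19.6% and 24.6% in control and at 16.6% and 17.5% after TGF-β1. In the 5'UTR of RHOB, a small GTPase of endosomes, it stood at 6.92% and 9.75% in control and at 5.43% and 8.85% after TGF-β1. Split pairs could be far apart, and in the 5'UTR of ARHGEF1, a RhoA exchange factor, the member stood at 8.65% and 6.69% while the cytidine beside it stood at 4.93% in control and 15.9% after TGF-β1.

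The members were next grouped by function, using 25 gene lists, each read against the 21.6% of lower positions and the median difference of 1.73 points over all shared positions. In the list of stellate activation and contraction, 19 of 65 shared positions were lower (29.2%, Wilson 95% interval 19.6 to 41.2%, as for the lists below), in 10 of 21 genes, with a median difference of 1.03 points. Besides TPM1, FLNC, MYH9 and PLEC, these included TLN1, the integrin adaptor talin (7.48% in control and 5.55% after TGF-β1), and ACTG1, cytoplasmic gamma-actin (3.66% and 1.86%). TPM3, another tropomyosin, stood at 5.41% and 4.23% in its 5'UTR. The list's listed cytidines as a whole went from 163 in control to 393 after TGF-β1, while those of all genes went from 8112 to 11735.

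Among collagens and other matrix proteins, 23 of 62 shared positions were lower (37.1%, 26.2 to 49.5%), in 15 of 23 genes, with a median difference of 0.81 points. With 1 position per gene, that of the lowest p in control, the count was 6 of 23 (26.1%, 12.5 to 46.5%). The hyaluronan receptor LAYN and COL7A1, described above, had the largest falls. Fibrillar collagens were represented by COL5A1 (10.8% in control and 6.01% after TGF-β1), COL1A1 (3.96% and 2.69%) and the 4 positions of COL5A2. Basement membrane collagens were represented by COL4A1 (3.28% and 2.23%), the 3 positions of COL4A2, and COL18A1. COL7A1 had both of its shared positions lower, the smaller fall being at 5.35% and 2.56%. COL6A1 (2.24% and 1.91%) and COL6A3 (2.40% and 2.20%), chains of the microfibrillar collagen VI, were nearly level. CCN1, a matrix-associated integrin ligand, stood at 7.55% and 6.18%, and TGFBI, a matrix protein named for its induction by TGF-β, stood at 8.94% and 8.36% in coding sequence and at 4.92% and 4.34% in its 3'UTR. The syndecans SDC1 (3.05% and 1.90%) and SDC4 (3.72% and 3.35%) and the proteoglycan AGRN (3.13% and 2.43%) completed the list. Again the genes of the list had more listed cytidines after TGF-β1, 241 against 145, as did all genes together, 11735 against 8112.

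Among matrix-modifying enzymes and proteases, 7 of 29 shared positions were lower (24.1%). CRTAP, of the collagen prolyl 3-hydroxylation complex, stood at 8.25% in control and 6.14% after TGF-β1, and FKBP10, a collagen chaperone, at 5.59% and 3.55%. The collagenase MMP1 stood at 10.5% and 9.02%, and TIMP1, an inhibitor of such proteases, at 3.43% and 2.79% in its 3'UTR. Of 4 shared positions in TGF-β and SMAD signalling genes, 2 were lower: the ligand gene TGFB1 itself (3.50% and 2.80%, chr19:41352927, coding) and ENG, the coreceptor endoglin (3.05% and 2.30%, chr9:127815359, 3'UTR).

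Small GTPases and their regulators had 11 of 26 shared positions lower (42.3%, 25.5 to 61.1%), in 8 of 16 genes, with a median difference of 0.91 points. They were RRAS, RGL2, RANBP1, RANGAP1, ARHGEF1, RHOA (1.81% in control and 1.47% after TGF-β1), 2 positions of RHOB and 3 of RHOC. The list is partial and leaves out RAB1B and CYTH2, for example, so its share is not that of the whole family. Both RHOB positions are adjacent and the 3 RHOC positions lie at most 5 bases apart, so 5 of the 11 came from 2 sites. Restricted to positions with a deposited p below 0.001 in both tables, the count was 3 of 14 (21.4%). Without positions that had another shared position within 10 bases it was 4 of 15 (26.7%).

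Tubulins and microtubule proteins had 5 of 20 lower (25%). After TUBA4A and DYNLT2B the falls were small, at MAP1S, a microtubule-associated protein (6.72% in control and 5.66% after TGF-β1), CKAP4 (8.34% and 7.29%) and KIF2C, a microtubule-depolymerising kinesin (3.15% and 2.35%).

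The translation machinery was uneven. Aminoacyl-tRNA synthetases had 5 of 10 shared positions lower (50%, 23.7 to 76.3%) and were the only list among those with 10 or more shared positions whose median difference was below 0 (-0.37 points). Besides AARS2 they were NARS1, for asparagine, with 2 positions 2 bases apart (10.8% and 5.83% in control, 7.35% and 4.64% after TGF-β1), HARS1, for histidine (6.71% and 5.51%), and VARS1, for valine (6.54% and 5.58%). Without positions that had another shared position within 10 bases the count was 2 of 6 (33.3%), and at 5% or more in both tables it was 4 of 4. Translation factors had 2 of 27 lower (7.41%, 2.06 to 23.4%): EIF3B, a subunit of the scaffold of initiation (3.35% and 1.65%), and EEF1D, an exchange factor of elongation (2.61% and 1.71%). Both were below 2% after TGF-β1, so among positions at 2% or more in both tables the count was 0 of 20. The cuts at 5% and at 2% use the values that the rule compared, so nothing is read from either.

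Cytosolic ribosomal proteins had 6 of 29 lower (20.7%). Apart from RPL34, they were RPS3 (5.52% in control and 3.78% after TGF-β1, 5'UTR) and RPS6, RPL9, RPS12 and RPL21, each within 0.2 points of its control value. These genes have many processed pseudogenes, and how reads shared with such copies were assigned is not stated in the labels. Mitochondrial ribosomal proteins had 5 of 21 lower (23.8%), led by MRPS18B (4.83% and 2.74%), MRPL53 (6.98% and 5.78%) and MRPS24 (7.27% and 6.33%). Ribosome assembly genes had 4 of 19 lower (21.1%): SURF6, NOC2L (5.81% and 4.47%), NCL, the nucleolar protein nucleolin (3.31% and 2.21%), and NOL6 (1.99% and 1.76%). Writers, erasers and readers of RNA modifications had 1 of 8 lower, PUS1, a pseudouridine synthase (12.7% and 12.5%).

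Metabolic lists were near or below the share of all shared positions. Glycolysis, pentose phosphate and TCA enzymes had 5 of 28 lower (17.9%), led by PC, ALDOA, the aldolase of muscle and many other cells (6.77% in control and 3.59% after TGF-β1), and PFKP, platelet phosphofructokinase (3.83% and 2.29%). Nuclear oxidative phosphorylation and mitochondrial redox genes had 2 of 16 lower (12.5%), GFER and ATP5F1A, the alpha subunit of ATP synthase (2.62% and 2.34%). The set of gene names beginning with SLC had 3 of 22 lower (13.6%), 2 of them in SLC6A6, the taurine transporter (11.9% and 9.31%; 5.01% and 3.84%), and 1 in SLC2A4RG, which is no transporter.

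Protein folding, transport and turnover lists were close to the overall share as well, apart from the 4 lysosomal positions. Endoplasmic reticulum and unfolded protein response genes had 5 of 22 lower (22.7%), led by DNAJB11, a cochaperone of BiP (13.1% in control and 11.3% after TGF-β1), HYOU1, an HSP70-related chaperone (3.15% and 1.86%), and CRELD2 (5.06% and 4.67%). Golgi and vesicle coat genes had 3 of 13 lower (23.1%): TMED9, AP2M1 and COPZ1, each by less than 0.4 points. Lysosomal genes had 0 of 4 lower. Proteasome subunits had 4 of 20 lower (20%), led by PSMB4 (3.88% and 2.48%), PSMC5 (2.50% and 1.41%, 5'UTR) and PSMD4 (2.28% and 1.503%). Ubiquitin ligases and proteases had 5 of 27 lower (18.5%), led by UBE2G2, OTUB1, a deubiquitinase (3.96% and 1.90%), and UBE2S (6.87% and 5.93%). With a deposited p below 0.001 in both tables the counts were 0 of 11 for proteasome subunits and 0 of 9 for ubiquitin ligases and proteases.

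Nuclear lists were near or below the share of all shared positions. Splicing factors had 8 of 57 lower (14.04%, 7.29 to 25.3%), led by SRSF11 (4.38% in control and 1.90% after TGF-β1), RBM3, a cold-induced RNA-binding protein (8.13% and 6.42%), and SRSF3 (3.79% and 2.40%). RNA helicases of the DEAD and DEAH box had 3 of 17 lower (17.6%), among them DDX11 (12.2% and 10.0%) and DHX16 (3.58% and 2.18%). DNA replication and mitosis genes had 3 of 26 lower (11.5%, 4.003 to 29.0%): the replicative helicase subunits MCM7 (4.32% and 2.52%) and MCM3 (2.23% and 1.57%), and the mitotic cyclin CCNB1 (1.49% and 1.34%). Transcription regulators of growth and differentiation had 3 of 15 lower (20%), among them TCF3 and ETS2, an ETS family factor (11.2% and 9.17%, 3'UTR). Zinc finger genes had 2 of 9 lower (22.2%), ZNF511 (3.25% and 2.46%) and ZNF646 (4.22% and 3.90%).

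**Figure D5:**
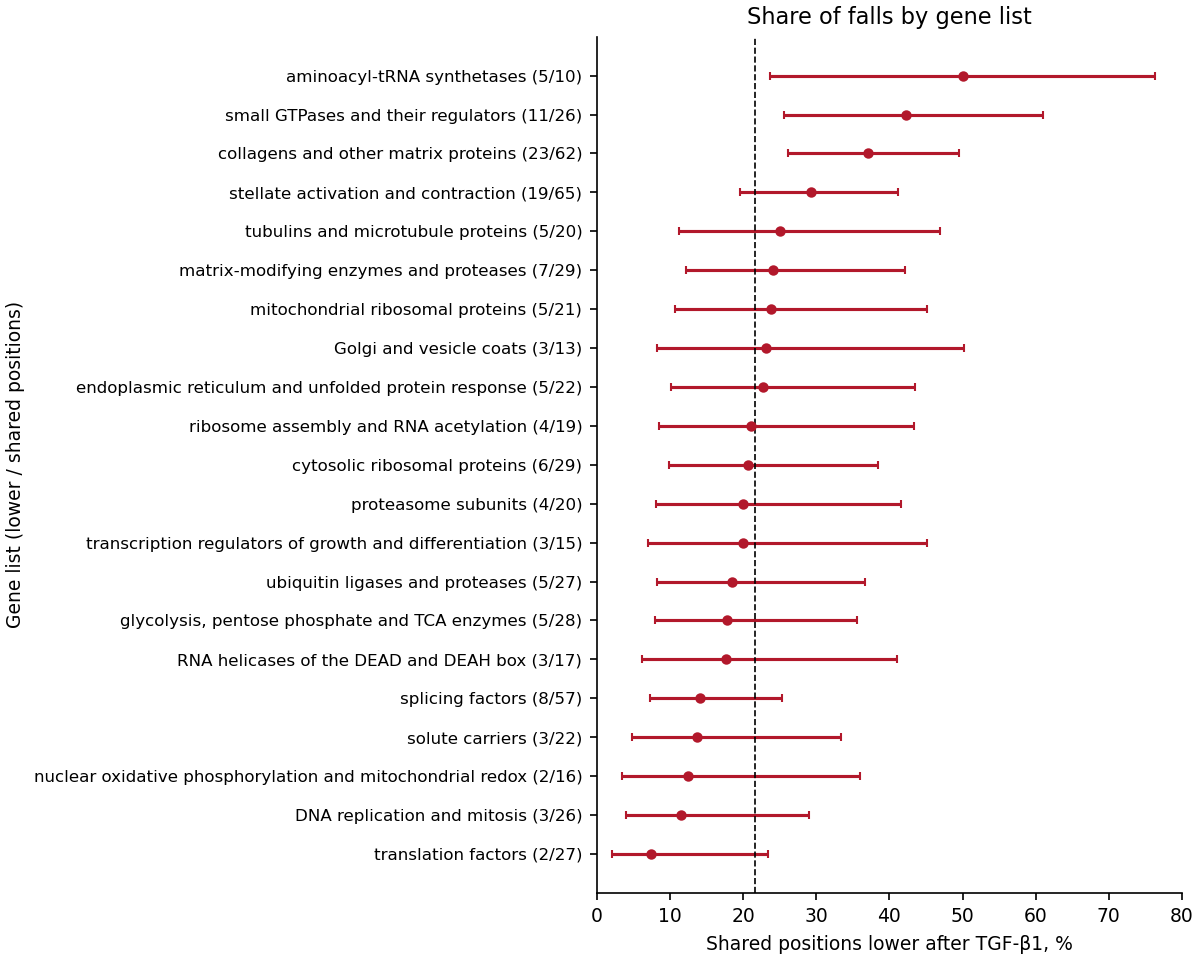
Share of shared positions that were lower after TGF-β1 (x axis, %) for the 21 gene lists with 10 or more shared positions; points are shares, bars are Wilson 95% intervals (counting error only), and the dashed line is the 21.6% of all shared positions. Aminoacyl-tRNA synthetases (50%), small GTPases (42.3%) and matrix proteins (37.1%) stand at the top and translation factors (7.41%) at the bottom; positions of 1 gene are not independent, and no test was run.

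The labelled cell type was set against marker genes through listed cytidines, which are not expression levels. Of 13 stellate cell markers, 7 had a listed cytidine (8 in control, 28 after TGF-β1), and 2 of their 4 shared positions were members, in COL1A1 and TIMP1. Of 11 hepatocyte markers 1 was listed, with no cytidine in control and 1 after TGF-β1. Of 10 Kupffer cell markers 1 was listed (3 and 2 cytidines), of 8 sinusoidal endothelial markers 0, and of 7 cholangiocyte markers 3 (2 and 6 cytidines). The markers of these other cell types held 1 shared position in all, which was higher after TGF-β1, so they had almost no position that could have been a member.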

How the data were processed

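NaBH4 libraries of LX-2 cells, 2 untreated and 2 given TGF-β1, were grouped by their titles, and each table was assigned to its group by its name. The submitters' processing notes name STAR 2.7.6a, featureCounts, fastp 0.23.1 and hg38, without their roles or order. The software that called positions, its filters and how replicates were merged: not given in the sources used here. For each position the authors deposited a mismatch difference as a fraction (printed here in percent, none below 1.00%) and a p-value (none above 0.05). No reads per library were used here, so depth and replicate spread are unknown.

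Lines of the same position were merged with pandas 2.3.3 in Python 3.11.15. Differences are TGF-β1 minus control. The end coordinate was taken as the 1-based position: it was C in 482 of 482 positions that fell in RefSeq windows, against 78 of 482 for the start. All 429 members matched a RefSeq symbol of GRCh38.p14. Shares have 95% Wilson intervals (scipy 1.17.1), which cover counting error only; positions of 1 gene are not independent. The counting was tested on simulated data, where every planted fall was recovered.

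The members and the gene lists were chosen with earlier results of these data known, and no list was tested. Named genes were the 25 largest falls (1 per gene), the 10 lowest ratios among members at 5% or more in control, up to 3 members per gene list, genes with 3 or more members, the 5 highest members after TGF-β1, the 5 positions on either side of the threshold and the 10 genes with most shared positions; others were named after their values were seen, and some genes covered by the rule are left out of the text and plots. Alternatives were subsets by p-value, level, gene and neighbour, and 2 scalings.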

Additional observations from a re-analysis of the deposited data

How the results depend on the processing

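No paired analysis was possible because each group was deposited as 1 table with 1 value per position, and for the same reason no replicate could be left out. The count of 429 became 210 for falls of at least 1 point, 108 for at least 2 points and 214 for ratios of at most 0.8. The share of shared positions that were lower became 19.1% with p below 0.001 in both tables, 23.5% at 5% or more in both, 49.97% after division by the median ratio and 31.0% after division by the ratio of the tables' medians. With p below 0.001 it was 17.7% in coding sequence and 10.6% in genes with fewer listed cytidines after TGF-β1. At 5% or more it was 26.7% in 5'UTRs and 27.4% in genes with more listed cytidines. Division by the median ratio gave 49.0% in coding sequence, 55.1% in 5'UTRs, 51.1% in 3'UTRs, 63.0% in noncoding exons, and 54.0% and 37.4% in genes with more and with fewer listed cytidines. Division by the ratio of medians gave 30.1% in coding sequence, 34.6% in 5'UTRs, and 34.4% and 22.3% in those genes. Both scalings lower every TGF-β1 value by construction, so no member could change direction under them, and for the other subsets the cause was not tested. The median fall was -0.31 as a log2 ratio. Over the 21 gene lists, 33 of 210 alternative shares left the interval of the main share, 12 of them without the scalings. The subsets by neighbour and those by segment, gene change and list were chosen after seeing the data.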
